A study of Mus musculus with 20 samples.

Results

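Oligodendrocyte precursor genes are described here in the hippocampus of adrenalectomized mice, as a set of 10 genes out of 57126 gene identifiers counted. They were listed by name: Pdgfra, Cspg4, Gpr17, Olig1, Olig2, Neu4, Bmp4, Vcan, Lhfpl3 and Bcan, and all 10 passed the filter on low counts. The study asked how a glucocorticoid receptor limited to its full-length translation product acts in the body. RNA was sequenced from 4 groups of 5 male C57BL/6 mice. They were homozygous GRA knockin mice given dexamethasone, knockin mice given PBS, wild-type mice given dexamethasone and wild-type mice given PBS. In the knockin, exon 2 of the receptor gene Nr3c1 keeps the start codon of GRA, while those of the shorter forms, GRB, the GRC forms GRC1 to GRC3 and the GRD forms GRD1 to GRD3, were changed to an isoleucine codon. All mice, controls included, had their adrenal glands removed at about 2.5 months of age, which takes away their own corticosterone. Dexamethasone, a synthetic glucocorticoid, was given by intraperitoneal injection at 1 mg/kg 2 weeks after surgery, and the hippocampus was taken 6 h later.

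Oligodendrocyte precursors are the dividing glia of the adult brain that give rise to myelinating oligodendrocytes. They are held in the precursor state by platelet-derived growth factor acting on the receptor that Pdgfra encodes. They pass through a committed stage marked by Gpr17 before myelin genes switch on, and in the hippocampus they are scattered among neurons and astrocytes and make up a small share of the cells. Several of the 10 genes are also used elsewhere. Cspg4 is transcribed in pericytes, Pdgfra, Vcan and Bmp4 in fibroblasts of the meninges, and Bcan in astrocytes, so a level in whole tissue is a sum over cell types. In such bulk samples, fewer cells of a type and less RNA per cell cannot be told apart.

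Libraries held between 11493014 and 48267708 read pairs assigned to genes. Levels are given as CPM, a library's counts brought to a common total with edgeR's TMM factors (trimmed mean of M), and a gene was called changed at an adjusted p below 0.05 in edgeR's quasi-likelihood test over 18648 genes. The glucocorticoid-induced gene Fkbp5 lay between 103 and 157 CPM in knockin mice under dexamethasone, against 22.7 to 69.0 CPM under PBS. In wild-type mice it lay between 115 and 169 CPM under dexamethasone, against 24.2 to 69.2 CPM under PBS, so treated and vehicle libraries matched their labels in every case. Nr3c1 counts do not read the changed codons and so cannot check the knockin. Nr3c1 averaged 111 ± 8.69 CPM in knockin and 98.6 ± 8.27 CPM in wild-type mice under dexamethasone, and 163 ± 24.1 CPM in knockin and 136 ± 21.8 CPM in wild-type mice under PBS (SD, n = 5). All 14 markers of hippocampal neurons were measured, and edgeR called 0 of them in either genotype (2 in knockin and 3 in wild-type mice had an unadjusted p below 0.05). For the mean response of both genotypes 2 of the 14, Neurod2 and Gad2, were called higher and 0 lower, beside 18.2% of all genes. Summed choroid plexus markers reached 2160.2 CPM in 1 knockin dexamethasone library and 2593 CPM in 1 wild-type PBS library, where the lowest library had 208 CPM among knockin dexamethasone mice and 242 CPM among wild-type PBS mice. Among knockin PBS mice, replicate 3 had 1083 CPM and the lowest library 202 CPM. Replicate 3 was left out only where each library was left out in turn. Ttr (261 CPM on average) and Enpp2 (256 CPM) were the most abundant choroid plexus markers. Summed liver markers reached 271 and 158 CPM in wild-type PBS replicates 1 and 2, where the other 3 libraries of the group had 5.69 to 9.74 CPM. Results are given with all libraries. The calls among the 10 genes without wild-type PBS replicates 1 and 2, and without the highest choroid library of the knockin dexamethasone and wild-type PBS groups, stand with the overview of the calls.

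Per kilobase of exon, the 10 genes spanned a wide range of levels. In wild-type PBS libraries, Bcan was highest at 78.1 ± 2.55 CPM per kb (SD, n = 5), and Olig1 followed at 45.3 ± 2.88 CPM per kb. Gpr17 had 13.1 ± 0.849 CPM per kb. Olig2 at 8.98 ± 0.741 CPM per kb and Pdgfra at 8.50 ± 0.315 CPM per kb were separated by less than the sum of their SDs. Lhfpl3 had 5.67 ± 0.292 CPM per kb and Cspg4 had 3.08 ± 0.230 CPM per kb. The lowest were Neu4 at 2.25 ± 0.180, Vcan at 1.82 ± 0.247 and Bmp4 at 1.54 ± 0.183 CPM per kb, of which Vcan and Bmp4 were separated by less than the sum of their SDs. Bmp4 was also the most thinly counted, with 33 to 136 read pairs in a library, while each of the other 9 genes had at least 128.

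**Figure D1:**
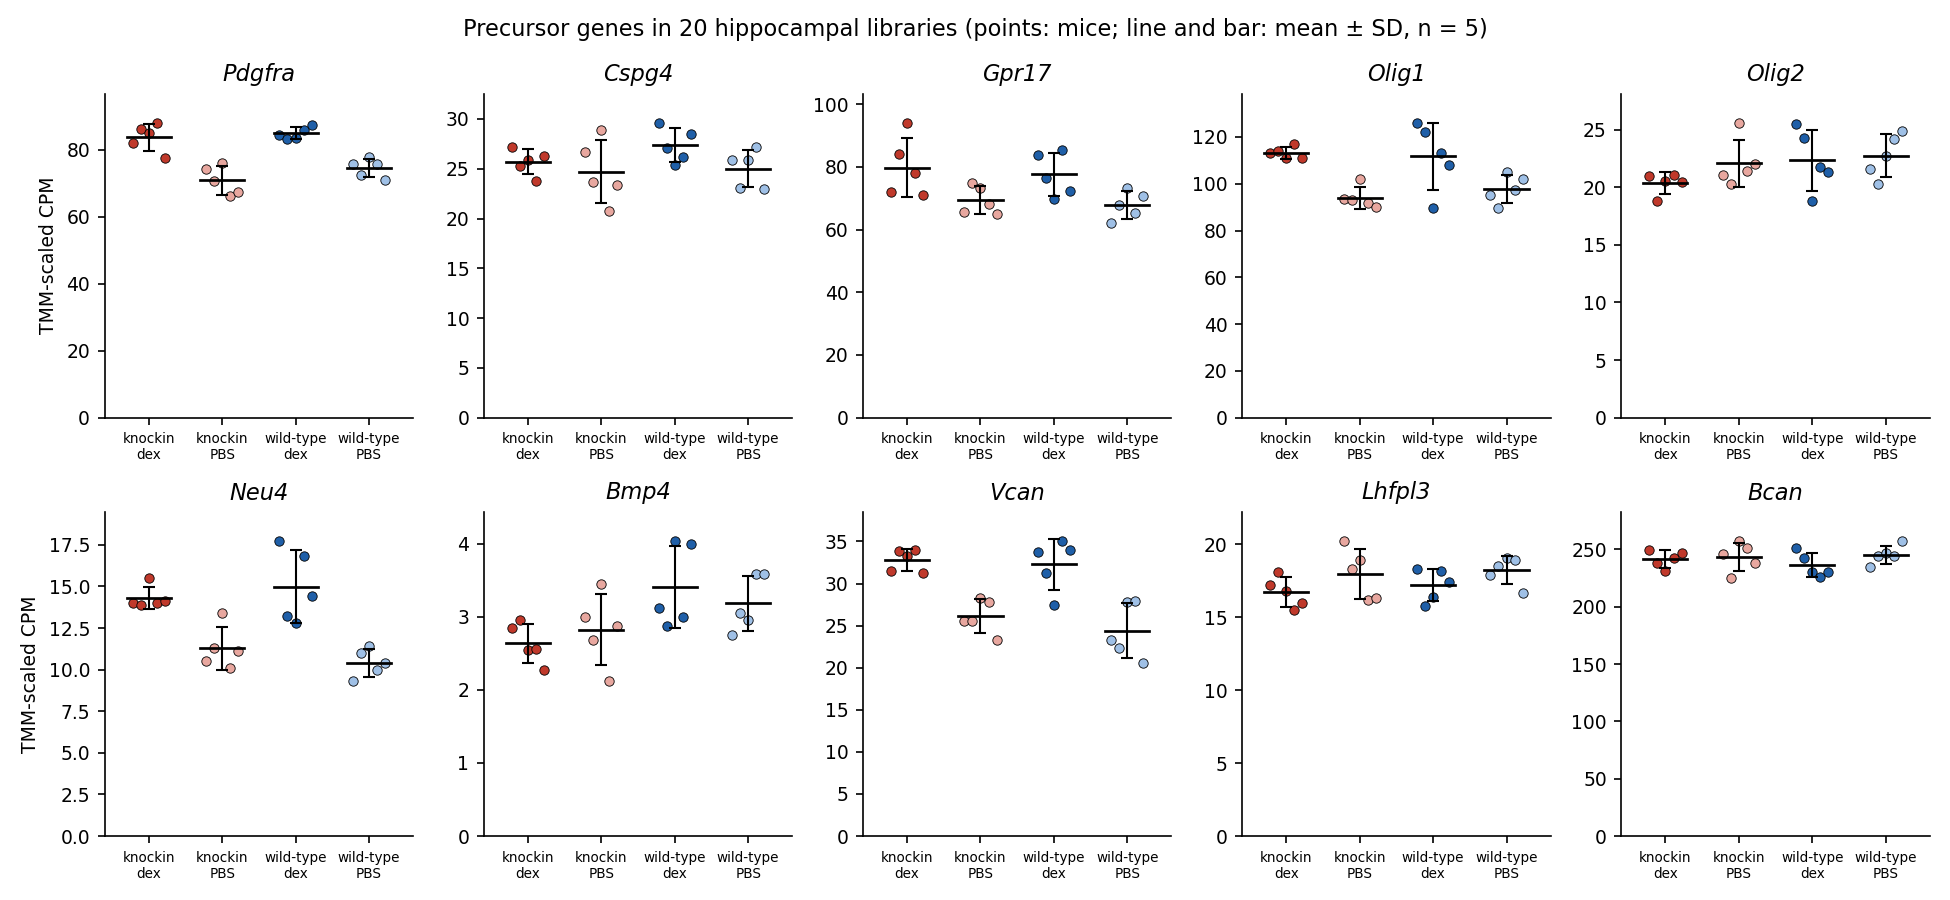
Level of each precursor gene in TMM-scaled CPM (vertical axes, each starting at 0) in the 20 libraries, by group along the horizontal axes. Points are mice, and the line and bar are the mean and SD of 5. Pdgfra and Neu4 sit higher under dexamethasone without overlap in both genotypes. Vcan and Olig1 do so in knockin mice and overlap between treatments in wild-type mice. Cspg4, Gpr17, Olig2, Lhfpl3, Bmp4 and Bcan overlap between treatments in both genotypes.

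Dexamethasone was associated with higher levels of a few of the 10 genes and with a lower level of none that passed the test. In knockin mice 4 of the 10 were called higher (Pdgfra, Olig1, Neu4 and Vcan) and 0 lower, where 10.0% of all genes tested were called, 5.28% higher and 4.71% lower. In wild-type mice 3 of the 10 were called higher (Pdgfra, Neu4 and Vcan) and 0 lower, where 9.21% of all genes were called, 5.27% higher and 3.94% lower. The median log2 fold change of the 10 genes was 0.13 in knockin mice and 0.16 in wild-type mice, against 0 for all genes in each. The 10 genes were chosen with earlier results of these data known, so their counts and medians beside those of all genes are a description. For the mean response of both genotypes, 5 of 10 were called higher and 0 lower, beside 18.2% of all genes (9.79% higher and 8.41% lower). Those 5 were Pdgfra, Gpr17, Olig1, Neu4 and Vcan. Without the liver-rich wild-type PBS replicates 1 and 2, the wild-type log2 fold changes were 0.18 for Pdgfra (adjusted p = 0.021), 0.48 for Neu4 (adjusted p = 0.00274) and 0.35 for Vcan (adjusted p = 0.0152), and the mean response of Gpr17 was no longer called. Without the choroid-rich knockin dexamethasone replicate 2 and wild-type PBS replicate 4, the knockin log2 fold changes were 0.23 for Pdgfra (adjusted p = 0.00137), 0.27 for Olig1 (adjusted p = 0.0283), 0.35 for Neu4 (adjusted p = 0.0189) and 0.31 for Vcan (adjusted p = 0.0119). In wild-type mice they were then 0.19 for Pdgfra (adjusted p = 0.0065), 0.50 for Neu4 (adjusted p = 0.000977) and 0.45 for Vcan (adjusted p = 0.000451).

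Markers of other cell types moved with treatment as well. Of 12 microglia markers, 0 were called higher and 6 lower in knockin mice, and 2 higher and 5 lower in wild-type mice. Their sums were 468 to 491 CPM under dexamethasone against 518 to 564 CPM under PBS in knockin mice, and 473 to 523 CPM under dexamethasone against 506 to 576 CPM under PBS in wild-type mice. Of 12 endothelial markers, 3 were called higher and 3 lower in knockin mice, and 3 higher and 1 lower in wild-type mice. Their sums were 522 to 586 CPM under dexamethasone against 434 to 509.5 CPM under PBS in knockin mice, and 530.3 to 621 CPM under dexamethasone against 457 to 501 CPM under PBS in wild-type mice, without overlap in either. Slc2a1 was the most abundant of these endothelial markers, at 129 CPM on average. It was called higher, with a log2 fold change of 1.25 in knockin and 1.18 in wild-type mice. The median log2 fold change of the endothelial list was -0.14 in knockin and -0.01 in wild-type mice. The part of the microglia and endothelial markers in the values of the 10 genes was not tested.

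Pdgfra (chromosome 5, 75312953 to 75358876, mm39, plus strand) encodes the alpha receptor for platelet-derived growth factor. Its levels in knockin mice were 81.9, 86.2, 84.9, 88.0 and 77.4 CPM under dexamethasone, against 74.3, 70.7, 76.1, 66.1 and 67.3 CPM under PBS. In wild-type mice they were 84.4, 83.1, 83.5, 85.9 and 87.5 CPM under dexamethasone, against 75.8, 72.5, 77.8, 75.6 and 70.9 CPM under PBS. Every dexamethasone library was above every PBS library within each genotype, although the lowest of them, in a knockin mouse, was close to the highest PBS values. The log2 fold change was 0.24 (SE 0.04, 1.18-fold, adjusted p = 0.000173) in knockin mice and 0.19 (SE 0.04, 1.14-fold, adjusted p = 0.00247) in wild-type mice. Of the 10 genes it had the smallest biological coefficient of variation, 4.49%, and for all genes together it was 7.08%. The rise was small and tightly measured. Of 12 markers of fibroblasts, which also carry this receptor, edgeR called 0 in either genotype (2 in knockin and 1 in wild-type mice had an unadjusted p below 0.05). Their sums in knockin mice were 144 to 206 CPM under dexamethasone against 158 to 258 CPM under PBS. In wild-type mice they were 149 to 322 CPM under dexamethasone against 197 to 269.7 CPM under PBS. The most abundant of the 12, Vtn at 68.0 CPM on average, is also on the list of pericytes and smooth muscle. For the mean response of both genotypes Vtn alone was called, and it was lower. The part of the fibroblast markers in the Pdgfra value was not tested.

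Neu4 (chromosome 1, 93948173 to 93956056, mm39, plus strand) encodes a sialidase, an enzyme that trims sialic acid from glycoproteins and glycolipids. In knockin mice it had 14.0, 13.9, 15.5, 14.0 and 14.1 CPM under dexamethasone, against 10.5, 11.3, 13.4, 10.1 and 11.1 CPM under PBS. Wild-type mice had 17.7, 13.2, 12.8, 16.8 and 14.4 CPM under dexamethasone, against 9.30, 11.0, 11.4, 9.97 and 10.4 CPM under PBS. The treatments did not overlap in either genotype. Neu4 had the largest estimate of the 10 genes in both genotypes, its distance from Vcan not being tested, with a log2 fold change of 0.34 (SE 0.09, 1.27-fold, adjusted p = 0.00866) in knockin mice and 0.51 (SE 0.09, 1.43-fold, adjusted p = 0.000172) in wild-type mice.

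Vcan (chromosome 13, 89803431 to 89890628, mm39, minus strand) encodes versican, a large chondroitin sulfate proteoglycan of the lectican family that precursors secrete into the matrix. Its levels in knockin mice were 31.5, 33.9, 33.3, 34 and 31.3 CPM under dexamethasone, against 25.6, 25.5, 28.3, 27.8 and 23.3 CPM under PBS. In wild-type mice they were 33.8, 31.2, 27.5, 35.0 and 34 CPM under dexamethasone, against 23.3, 22.4, 27.8, 27.9 and 20.6 CPM under PBS. The treatments were separate in knockin mice, and in wild-type mice 1 dexamethasone library fell among the PBS values. The log2 fold change was 0.32 (SE 0.08, 1.25-fold, adjusted p = 0.00538) in knockin mice and 0.41 (SE 0.08, 1.33-fold, adjusted p = 0.000692) in wild-type mice. Of the 10 genes, 4 in knockin and 2 in wild-type mice were free of overlap between treatments, all of them called genes. Of all genes 8.68% were so in knockin and 8.22% in wild-type mice. The calls come from the same values, so the lack of overlap is a description and not separate support.

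Bcan (chromosome 3, 87894838 to 87907537, mm39, minus strand) encodes brevican, another lectican, and did not pass the test. In knockin mice it had 249.9, 238, 231, 243 and 247 CPM under dexamethasone, against 246, 225, 257, 251 and 238 CPM under PBS. Wild-type mice had 251, 243, 230.3, 226 and 230.2 CPM under dexamethasone, against 235, 244, 247, 244 and 257 CPM under PBS. The groups overlapped throughout. The log2 fold change was -0.01 (95% CI -0.09 to 0.07) in knockin mice and -0.06 (95% CI -0.13 to 0.02) in wild-type mice, so both intervals end below the estimate for Vcan. Summed astrocyte markers, whose cells also transcribe Bcan, were 7392 to 8234 CPM under dexamethasone against 7232 to 7795 CPM under PBS in knockin mice. In wild-type mice they were 7200.0 to 7636 CPM under dexamethasone against 7174 to 7574 CPM under PBS. Of the 12 astrocyte markers 4 were called higher and 1 lower in each genotype. Slc1a2 was the most abundant of the 12, at 4612 CPM on average, so the sums mostly follow that gene. The part of the astrocyte markers in the Bcan value was not tested.

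The promoter windows of the 3 genes called in both genotypes are printed with that of Bcan, the most abundant gene without a call, as a description of their letters. They are too few to set called genes against others. Each window is read 5′ to 3′ on the gene's strand, from 250 bases before to 50 bases after the start given by RefSeq for build GRCm38.p6. That is an older build than the mm39 used for the gene positions. Capitals mark the E-box CANNTG, the letters bound by basic helix-loop-helix factors such as the OLIG proteins, and the glucocorticoid half-site AGAACA on either strand, which reads TGTTCT on the other one. The windows are chr5:75152001-75152300 (plus strand) for Pdgfra, chr1:94020243-94020542 (plus strand) for Neu4, chr13:89742463-89742762 (minus strand) for Vcan and chr3:88000307-88000606 (minus strand) for Bcan.
Pdgfra: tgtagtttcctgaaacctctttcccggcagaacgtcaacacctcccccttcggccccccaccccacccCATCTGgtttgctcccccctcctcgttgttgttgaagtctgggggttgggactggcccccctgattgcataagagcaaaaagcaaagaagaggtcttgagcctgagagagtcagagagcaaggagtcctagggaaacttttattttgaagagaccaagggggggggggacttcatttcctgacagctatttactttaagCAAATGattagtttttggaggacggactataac
Neu4: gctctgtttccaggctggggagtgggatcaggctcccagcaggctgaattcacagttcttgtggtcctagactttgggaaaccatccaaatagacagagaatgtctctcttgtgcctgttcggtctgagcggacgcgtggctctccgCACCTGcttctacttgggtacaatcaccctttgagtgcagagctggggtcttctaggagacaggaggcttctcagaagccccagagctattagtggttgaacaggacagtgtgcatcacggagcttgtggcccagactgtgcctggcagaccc
Vcan: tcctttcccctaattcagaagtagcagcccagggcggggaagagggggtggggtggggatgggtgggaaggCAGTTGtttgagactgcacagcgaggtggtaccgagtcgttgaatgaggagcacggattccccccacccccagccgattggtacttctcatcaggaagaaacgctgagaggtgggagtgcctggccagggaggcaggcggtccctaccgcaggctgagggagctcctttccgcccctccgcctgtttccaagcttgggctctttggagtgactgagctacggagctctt
Bcan: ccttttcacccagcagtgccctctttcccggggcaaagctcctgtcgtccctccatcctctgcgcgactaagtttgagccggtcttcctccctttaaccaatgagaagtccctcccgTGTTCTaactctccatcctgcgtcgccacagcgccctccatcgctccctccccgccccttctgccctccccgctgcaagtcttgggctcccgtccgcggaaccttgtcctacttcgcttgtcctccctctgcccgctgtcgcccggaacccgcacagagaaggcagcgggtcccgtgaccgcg

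Windows were read for 8 of the 10 genes, all but Olig1 and Gpr17. For the 10 genes, windows on chromosome 18, which holds Gpr17, were left out. The glucocorticoid response element, AGAACA and TGTTCT with any 3 bases between them, searched on both strands, was in 0 of these 8 windows and in 3 of the 32851 RefSeq mouse windows of the same length (0.00913%). Its half-site was in the Bcan window alone, 133 bases before the start, and in 19.0% of all windows. An E-box was in 5 of the 8 windows, against 72.3% of all, with 2 in Pdgfra, 1 each in Neu4 and Vcan, 3 in Bmp4 and 2 in Lhfpl3. The GC box GGGCGG, searched on both strands, was in 6 of the 8, those of Cspg4, Olig2, Bmp4, Vcan, Lhfpl3 and Bcan, against 35.7% of all windows. The TATA box TATAAA was in the Olig2 window alone (13.6% of all windows), and the SOX site ACAAAG was in 0 of the 8 (18.7% of all windows). A match describes these letters only and does not show binding.

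Olig1 and Olig2 encode paired basic helix-loop-helix transcription factors of the lineage, and both lie on chromosome 16 (91066660 to 91068821 and 91022345 to 91025565, mm39, plus strand). Olig1 in knockin mice had 113, 114, 111, 117 and 111 CPM under dexamethasone, against 93.5, 93.1, 102, 91.7 and 89.9 CPM under PBS. In wild-type mice it had 126, 122, 89.6, 113 and 108 CPM under dexamethasone, against 95.1, 89.6, 105, 97.2 and 102 CPM under PBS. The treatments were separate in knockin mice, while in wild-type mice 4 of the 5 dexamethasone libraries were above all PBS libraries and the remaining one was at their lowest value. The log2 fold change was 0.27 (SE 0.07, 1.20-fold, adjusted p = 0.00853) in knockin mice and 0.19 (SE 0.07, 1.14-fold, adjusted p = 0.0847) in wild-type mice. Without that one library, wild-type dexamethasone replicate 3, the wild-type value was 0.26 (adjusted p = 0.000447) and 4 of the 10 genes were called in wild-type mice. Replicate 3 was the lowest library of its group for Cspg4, Gpr17, Olig1, Olig2, Neu4 and Vcan and the highest for Bmp4.

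Olig2 did not pass the test in either genotype. Its levels in knockin mice were 21.0, 18.8, 20.6, 21.1 and 20.5 CPM under dexamethasone, against 21.1, 20.3, 25.6, 21.4 and 22 CPM under PBS. Wild-type mice had 25.5, 24.3, 18.8, 21.8 and 21.3 CPM under dexamethasone, against 21.6, 20.3, 22.7, 24.2 and 24.9 CPM under PBS. The groups overlapped, and the log2 fold change was -0.11 (SE 0.07, adjusted p = 0.456) in knockin mice and -0.03 (SE 0.07, adjusted p = 0.909) in wild-type mice.

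Within a library the ratio of 2 genes does not depend on how libraries are scaled. Ratios were formed for 6 pairs chosen after the values had been seen, so they are given as a description. Olig1 over Olig2 was 5.36, 6.06, 5.42, 5.56 and 5.38 read pairs per read pair in knockin mice under dexamethasone, against 4.43, 4.58, 3.98, 4.29 and 4.08 under PBS. In wild-type mice it was 4.93, 5.02, 4.77, 5.19 and 5.09 under dexamethasone, against 4.41, 4.41, 4.65, 4.02 and 4.12 under PBS. Treatments did not overlap in either genotype, including the wild-type library in which both genes were low. Vcan over Bcan ran from 0.126 to 0.144 under dexamethasone against 0.0979 to 0.114 under PBS in knockin mice, and from 0.119 to 0.155 under dexamethasone against 0.0800 to 0.114 under PBS in wild-type mice, again without overlap. Gpr17 over Pdgfra averaged 0.953 ± 0.0939 under dexamethasone and 0.980 ± 0.0684 under PBS in knockin mice, and 0.914 ± 0.0821 under dexamethasone and 0.912 ± 0.0700 under PBS in wild-type mice (SD, n = 5), so treatments differed by less than 1 SD in this ratio of a committed-stage to an early marker. The ratios Neu4 over Bmp4, Vcan over Pdgfra and Cspg4 over Pdgfra overlapped between treatments in at least 1 genotype.

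**Figure D2:**
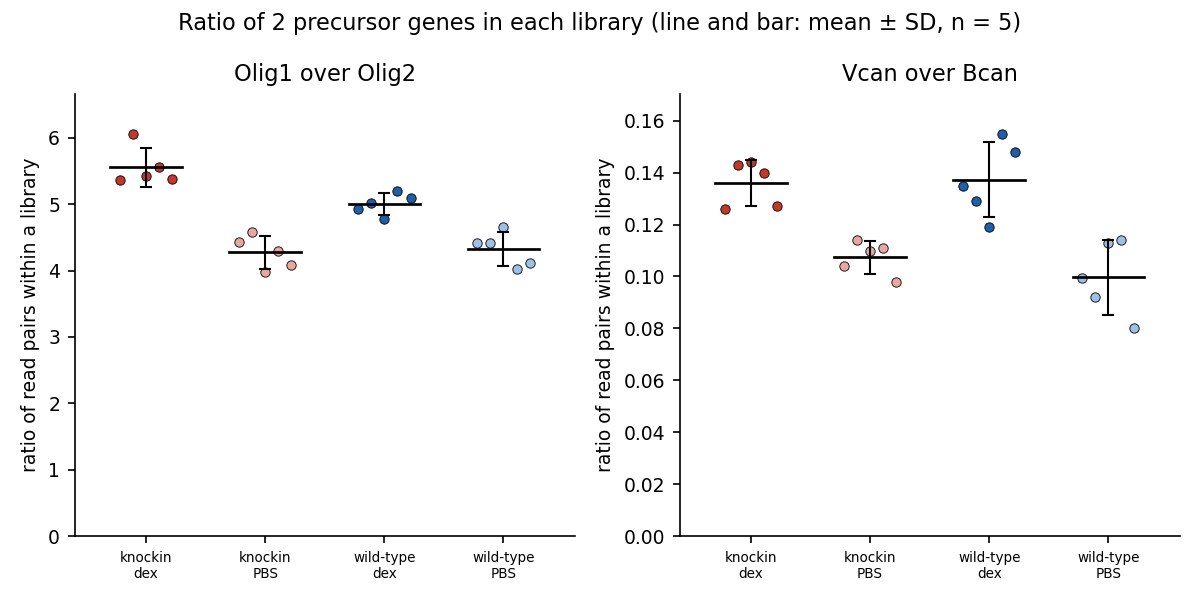
Ratio of the read pairs of Olig1 to Olig2 (left) and of Vcan to Bcan (right) in each library (vertical axes, starting at 0), by group along the horizontal axes. Points are mice and the line and bar are the mean and SD of 5; Olig1 over Olig2 averages 5.56 under dexamethasone and 4.27 under PBS in knockin mice, and 5.00 under dexamethasone and 4.32 under PBS in wild-type mice.

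Gpr17 (chromosome 18, 32076050 to 32082689, mm39, minus strand) encodes an orphan G protein-coupled receptor of committed precursors. Levels in knockin mice were 72.1, 84.0, 94.0, 77.9 and 70.9 CPM under dexamethasone, against 65.7, 74.8, 73.1, 68.3 and 64.9 CPM under PBS. Wild-type mice had 83.8, 76.5, 69.7, 85.5 and 72.3 CPM under dexamethasone, against 62.0, 67.8, 73.3, 65.4 and 70.6 CPM under PBS. The treatments overlapped in both genotypes. The log2 fold change was 0.20 (95% CI 0.04 to 0.35, adjusted p = 0.105) in knockin mice and 0.19 (95% CI 0.03 to 0.34, adjusted p = 0.135) in wild-type mice, neither of which passed the test. Over both genotypes together it was 0.19 (SE 0.05, adjusted p = 0.0112), which did pass, and without the liver-rich wild-type PBS replicates 1 and 2 it was 0.16 (adjusted p = 0.0514). Without knockin dexamethasone replicate 5 the knockin value was 0.23 (adjusted p = 0.0489). Gpr17 lies within Lims2, which is on the other strand. The counting ignored strand, so pairs from the 2 genes cannot be told apart where their exons overlap. Lims2 averaged 263.7 read pairs a library, was not called, and had log2 fold changes of 0.15 in both genotypes.

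Cspg4 (chromosome 9, 56772317 to 56807154, mm39, plus strand) encodes the transmembrane proteoglycan NG2 of precursors and pericytes. Its knockin levels were 27.2, 25.3, 25.9, 23.8 and 26.3 CPM under dexamethasone, against 26.7, 23.7, 28.9, 20.8 and 23.4 CPM under PBS. Wild-type mice had 29.6, 27.1, 25.4, 26.2 and 28.5 CPM under dexamethasone, against 25.9, 23.1, 25.9, 27.2 and 23.0 CPM under PBS. The groups overlapped, and the log2 fold change was 0.06 (95% CI -0.09 to 0.20, adjusted p = 0.719) in knockin mice and 0.14 (95% CI -0.01 to 0.28, adjusted p = 0.279) in wild-type mice. The 12 markers of pericytes and smooth muscle summed to 308 to 339 CPM under dexamethasone against 317 to 410.3 CPM under PBS in knockin mice, where 1 was called higher and 2 lower. Their sums were 319 to 371 CPM under dexamethasone against 368 to 409.6 CPM under PBS in wild-type mice, where none was called at the threshold and 4 had an unadjusted p below 0.05. Their part in the Cspg4 value was not tested.

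Bmp4 (chromosome 14, 46620977 to 46628126, mm39, minus strand) encodes a secreted bone morphogenetic protein, a family that steers precursors away from becoming oligodendrocytes. Knockin mice had 2.85, 2.95, 2.55, 2.56 and 2.27 CPM under dexamethasone, against 2.99, 2.68, 3.45, 2.12 and 2.87 CPM under PBS. Wild-type mice had 3.12, 2.88, 4.03, 2.99 and 4.00 CPM under dexamethasone, against 2.75, 3.05, 2.95, 3.58 and 3.58 CPM under PBS. All groups overlapped between treatments. Its log2 fold change was -0.08 (95% CI -0.37 to 0.20) in knockin mice and 0.12 (95% CI -0.16 to 0.40) in wild-type mice, the widest intervals of the 10 genes.

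Lhfpl3 (chromosome 5, 22951057 to 23480595, mm39, plus strand) encodes a tetraspan membrane protein of the LHFPL family and is used as a precursor marker. In knockin mice it had 17.2, 18.1, 16.8, 15.5 and 16.0 CPM under dexamethasone, against 20.2, 18.3, 18.9, 16.2 and 16.3 CPM under PBS. Wild-type mice had 18.3, 15.8, 16.4, 18.2 and 17.4 CPM under dexamethasone, against 17.9, 18.5, 19.1, 18.9 and 16.7 CPM under PBS. The groups overlapped, and no test was passed, with log2 fold changes of -0.11 (adjusted p = 0.344) in knockin mice and -0.08 (adjusted p = 0.550) in wild-type mice. Over both genotypes the value was -0.10 (SE 0.05, adjusted p = 0.160).

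**Figure D3:**
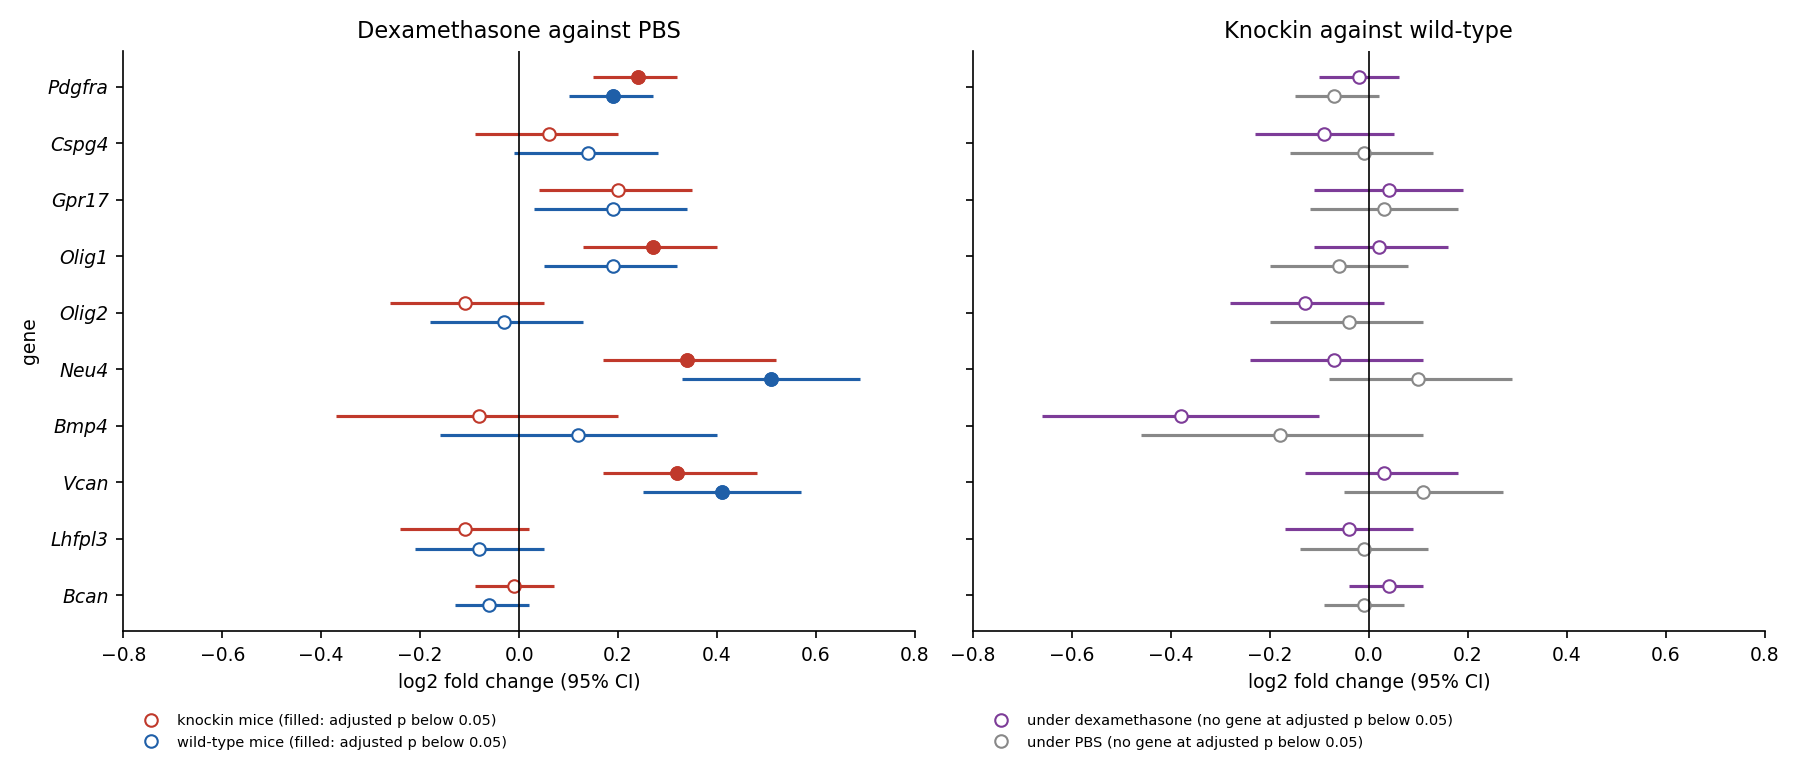
Log2 fold change with 95% confidence interval (horizontal axes) of each precursor gene for dexamethasone against PBS in knockin and wild-type mice (left) and for knockin against wild-type under dexamethasone and PBS (right). Filled points passed the test; 4 do so in knockin mice and 3 in wild-type mice on the left, and none on the right.

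The knockin and wild-type mice were then compared under each treatment. No gene of the 18648 was called under dexamethasone (0%) or under PBS (0%) by edgeR. An unadjusted p below 0.05 was seen for 828 (4.44%) under dexamethasone and 673 (3.61%) under PBS, and 0 of the 10 precursor genes were called in each. Under dexamethasone 1 of the 10 had an unadjusted p below 0.05. That was Bmp4, with a log2 fold change of -0.38 (SE 0.14, 95% CI -0.66 to -0.10, adjusted p = 1.0), at 2.63 ± 0.273 CPM in knockin and 3.40 ± 0.564 CPM in wild-type mice (SD, n = 5). Under PBS it was -0.18 (95% CI -0.46 to 0.11). Under dexamethasone the fibroblast markers, whose cells also transcribe Bmp4, had a median log2 fold change of -0.57, with 0 of 12 called and 7 at an unadjusted p below 0.05. Their part in the Bmp4 value was not tested. For the other 9 genes the log2 fold change lay between -0.13 (Olig2) and 0.04 (Gpr17 and Bcan) under dexamethasone, and between -0.07 (Pdgfra) and 0.11 (Vcan) under PBS.

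The difference between the genotypes in the response to dexamethasone was tested directly. No gene of the 18648 was called (0%), with 527 (2.83%) at an unadjusted p below 0.05, none of them among the 10. The difference, knockin minus wild-type, was 0.05 (95% CI -0.07 to 0.17) for Pdgfra, -0.17 (95% CI -0.42 to 0.09) for Neu4, -0.09 (95% CI -0.31 to 0.14) for Vcan and 0.08 (95% CI -0.11 to 0.27) for Olig1, all on the log2 scale. The Olig1 call in knockin mice alone is thus not a shown difference between genotypes. These intervals are as wide as several of the responses themselves, so equal responses are not shown, and for Bmp4 the interval of the difference ran from -0.60 to 0.19.

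Genes around the 10 were followed in lists chosen by role with results of these data already known, and their counts stand beside the same 10.0% of genes called in knockin and 9.21% in wild-type mice. Of 20 transcription factors and regulators of the lineage, 0 were called higher and 5 lower in each genotype, against the direction of the Olig1 rise in knockin mice. They were Sox10, a driver of the lineage, with a log2 fold change of -0.56 in knockin and -0.41 in wild-type mice, Sox6 (-0.27 in knockin, -0.34 in wild-type mice), Sox5 (-0.32 in knockin, -0.31 in wild-type mice), Prrx1 (-0.61 in knockin, -0.35 in wild-type mice) and Nkx2-2 (-0.50 in knockin, -0.55 in wild-type mice). The median of the list was -0.09 in knockin and -0.17 in wild-type mice. For the mean response of both genotypes 2 of the 20 were called higher and 8 lower, beside 18.2% of all genes, so not every called regulator fell. Sox10 averaged 30.3 ± 3.37 CPM under dexamethasone and 44.6 ± 5.52 CPM under PBS in knockin mice, and 32.4 ± 2.65 CPM under dexamethasone and 43.1 ± 4.63 CPM under PBS in wild-type mice (SD, n = 5). Some of these calls rested on single libraries. Nkx2-2 lost its call in knockin mice without any 1 of PBS replicates 3, 4 and 5 and dexamethasone replicates 2 and 4 (highest adjusted p over the alternatives 0.105), and in wild-type mice without PBS replicate 3 or 5. Prrx1 lost its wild-type call without PBS replicate 3 or dexamethasone replicate 1 (0.0608), and Sox5 without PBS replicates 1 and 2 together (0.0904).

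Growth signals of precursors moved in both directions. Of 18 listed 17 were tested, with 5 higher and 4 lower in knockin mice and 5 higher and 3 lower in wild-type mice. The fibroblast growth factor receptors went apart: Fgfr2 fell (log2 fold change -0.90 in knockin, -0.86 in wild-type mice) while Fgfr3 (0.74 in knockin, 0.63 in wild-type mice) and Fgfr1 (0.66 in knockin, 0.49 in wild-type mice) rose. Ednrb, an endothelin receptor that astrocytes also carry, fell (-0.73 in knockin, -0.72 in wild-type mice), and the ligand gene Pdgfd rose (0.54 in knockin, 0.56 in wild-type mice). Pdgfa, the main ligand for the Pdgfra receptor and named here after its values were seen, had -0.06 in knockin and 0.07 in wild-type mice and was not called. Lif, for a cytokine, was called in wild-type mice (-1.19) and not in knockin mice (-0.82), at levels below 2 CPM, and the wild-type call was lost under 11 of 19 alternatives, among them without any 1 of PBS replicates 1, 2, 4 and 5 and dexamethasone replicates 1, 2 and 4 (highest adjusted p = 0.136). Fgfr3 is also on the astrocyte list.

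Of 24 other genes listed as enriched in precursors, an enrichment not measured in these bulk samples, 23 were tested. In knockin mice 3 were higher and 6 lower, and in wild-type mice 2 were higher and 7 lower, with medians of -0.04 in knockin and -0.13 in wild-type mice. Tmem100 (-0.65 in knockin, -0.66 in wild-type mice), Pllp (-0.58 in knockin, -0.68 in wild-type mice), Cspg5, a neural chondroitin sulfate proteoglycan (-0.47 in knockin, -0.45 in wild-type mice), and Xylt1, which starts glycosaminoglycan chains (-0.49 in knockin, -0.43 in wild-type mice), fell in both. Rlbp1, for a retinoid-binding protein, also fell (-0.44 in knockin, -0.38 in wild-type mice), and Ccnd1, for cyclin D1, had -0.31 in knockin mice, without a call, and fell in wild-type mice (-0.53). Cspg5 averaged 178 ± 5.92 CPM under dexamethasone and 247 ± 14.5 CPM under PBS in knockin mice, and 181 ± 9.71 CPM under dexamethasone and 248 ± 19.1 CPM under PBS in wild-type mice (SD, n = 5).

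Later stages of the lineage also held changes in both directions. Of 18 genes of committed precursors and newly formed oligodendrocytes, 4 were higher and 2 lower in knockin mice and 5 higher and 2 lower in wild-type mice. Prom1, which encodes a membrane glycoprotein, rose by 0.96 on the log2 scale in knockin and by 0.80 in wild-type mice, Tns3, which encodes a focal adhesion protein, by 0.56 in knockin and 0.48 in wild-type mice, and Itpr2, a calcium release channel gene, by 0.37 in knockin and 0.49 in wild-type mice. Enpp6, a choline phosphodiesterase gene of newly formed oligodendrocytes, had -0.47 in knockin and -0.54 in wild-type mice and lost its call under 7 of 20 alternatives in knockin mice (highest adjusted p = 0.0875), PBS replicates 1, 3 and 5 and dexamethasone replicates 4 and 5 left out among them. Of 20 mature oligodendrocyte and myelin genes 3 were higher and 7 lower in knockin mice, and 1 was higher and 7 lower in wild-type mice, with medians of -0.22 in knockin and -0.20 in wild-type mice. Opalin (-1.18 in knockin, -1.23 in wild-type mice), Aspa (-0.92 in knockin, -1.04 in wild-type mice) and Ugt8a, for galactolipid synthesis (-0.71 in knockin, -0.72 in wild-type mice), fell.

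**Figure D4:**
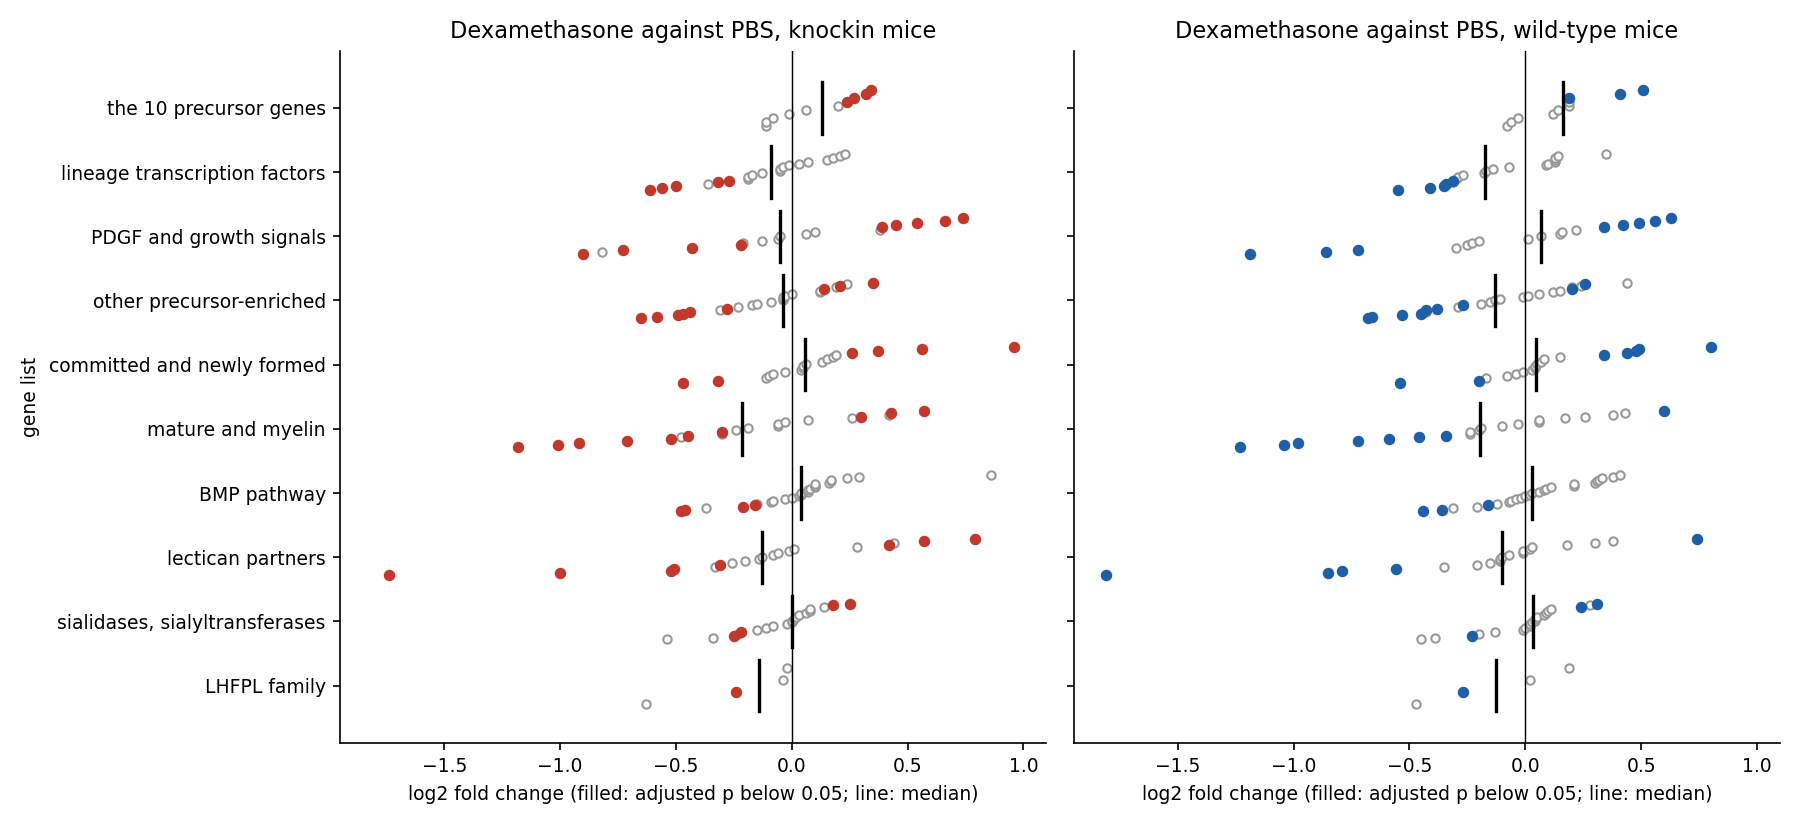
Log2 fold change of dexamethasone against PBS (horizontal axes) for each gene of 10 lists (rows) in knockin (left) and wild-type mice (right). Filled points passed the test and black lines are medians; the 10 precursor genes have medians of 0.13 in knockin and 0.16 in wild-type mice with no filled point below 0, and the lineage transcription factors have filled points below 0 only.

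Partners of the individual genes were read in the same way. Of 25 genes of the BMP pathway, 0 were higher and 4 lower in knockin mice and 0 higher and 3 lower in wild-type mice, while the medians were 0.04 in knockin and 0.03 in wild-type mice. For the mean response of both genotypes 1 of the 25 was called higher and 5 lower. The receptor gene Bmpr1b (-0.46 in knockin, -0.36 in wild-type mice), the target gene Id3 (-0.48 in knockin, -0.44 in wild-type mice) and the signal transducer gene Smad5 (-0.21 in knockin, -0.16 in wild-type mice) fell. Of 20 genes for other lecticans and for lectican partners and processing enzymes 19 were tested. In knockin mice 3 were higher and 5 lower, and in wild-type mice 1 was higher and 4 lower. Among them the lectican gene Acan was higher in knockin mice (0.57). Another lectican gene, Ncan, named here after its values were seen, was lower in knockin mice (-0.31). The Ncan call was lost under 11 of 20 alternatives, and neither gene was called in wild-type mice. Tnc, for the lectican-binding matrix protein tenascin C (-1.74 in knockin, -1.81 in wild-type mice), the hyaluronan receptor gene Cd44 (-1.0 in knockin, -0.79 in wild-type mice) and the chondroitin-building enzyme gene Csgalnact1 (-0.51 in knockin, -0.56 in wild-type mice) fell, and the protease gene Adamts20 rose (0.79 in knockin, 0.74 in wild-type mice). Hapln3, for a link protein, was called in wild-type mice (-0.85) and not in knockin mice (-0.33), and lost that call without wild-type PBS replicate 3 (adjusted p = 0.0604).

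Of 20 sialidase, sialyltransferase and sialic acid synthesis genes, 2 were higher and 2 lower in knockin mice and 2 were higher and 1 lower in wild-type mice. St3gal4 (0.25 in knockin, 0.31 in wild-type mice) and St8sia1 (0.18 in knockin, 0.24 in wild-type mice), which add sialic acid, rose, and St6galnac5, another sialyltransferase gene, fell (-0.22 in knockin, -0.23 in wild-type mice). Without knockin PBS replicate 1 the St3gal4 call in knockin mice was lost (adjusted p = 0.0714). Among 5 LHFPL genes listed 4 were tested, and Lhfpl2 had -0.24 in knockin and -0.27 in wild-type mice, a call lost under 8 of 20 alternatives in knockin (highest adjusted p = 0.132, PBS replicates 1, 2 and 3 and dexamethasone replicates 2, 4 and 5 left out among them) and 3 of 20 in wild-type mice (0.0687, PBS replicate 3 and dexamethasone replicate 3 left out among them). Of 12 markers of neural stem cells, new neurons and dividing cells 10 were tested, and edgeR called 0 in either genotype, also 0 at an unadjusted p below 0.05. The new-neuron genes Dcx (28.1 CPM on average) and Sox11 (21.3 CPM) make up most of the sum, while the division marker Mki67 had 5.18 CPM and Top2a 2.75 CPM. The sums were 58.1 to 68.2 CPM under dexamethasone against 52.6 to 80.0 CPM under PBS in knockin mice, and 56.5 to 62.6 CPM under dexamethasone against 54.0 to 75.4 CPM under PBS in wild-type mice.

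Apart from treatment and genotype, the 10 genes varied together only loosely from mouse to mouse. Log2 levels were centred on their group means and correlated over the 20 libraries, with p from a permutation test within groups (100000 resamples, two-sided). Of the 45 pairs 38 had a Pearson r above 0, with a median r of 0.33, and 10 had an unadjusted p below 0.05. After adjustment over the 45 pairs 2 passed. Olig1 and Olig2 had r = 0.82 (permutation p = 0.00067, adjusted p = 0.0175) and Spearman's rho = 0.70 (permutation p = 0.0049, adjusted p = 0.0735), and r = 0.71 without the 2 libraries farthest from the median of Olig1 (permutation p = 0.00784, adjusted p = 0.0944). Gpr17 and Neu4 had r = 0.68 (permutation p = 0.00078, adjusted p = 0.0175), rho = 0.68 (permutation p = 0.0022, adjusted p = 0.0735) and r = 0.64 without 2 libraries (permutation p = 0.00839, adjusted p = 0.0944). Neither pair thus passed by rho or without 2 libraries, where Pdgfra and Vcan alone did (r = 0.68, permutation p = 0.0006, adjusted p = 0.027, against r = 0.55 and adjusted p = 0.0821 over all 20). Olig2 and Bcan also had r = 0.68, with an adjusted p of 0.0718 in the same permutation test. Values of a library share its depth and scaling, and with library totals in place of TMM 6 pairs passed.

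**Figure D5:**
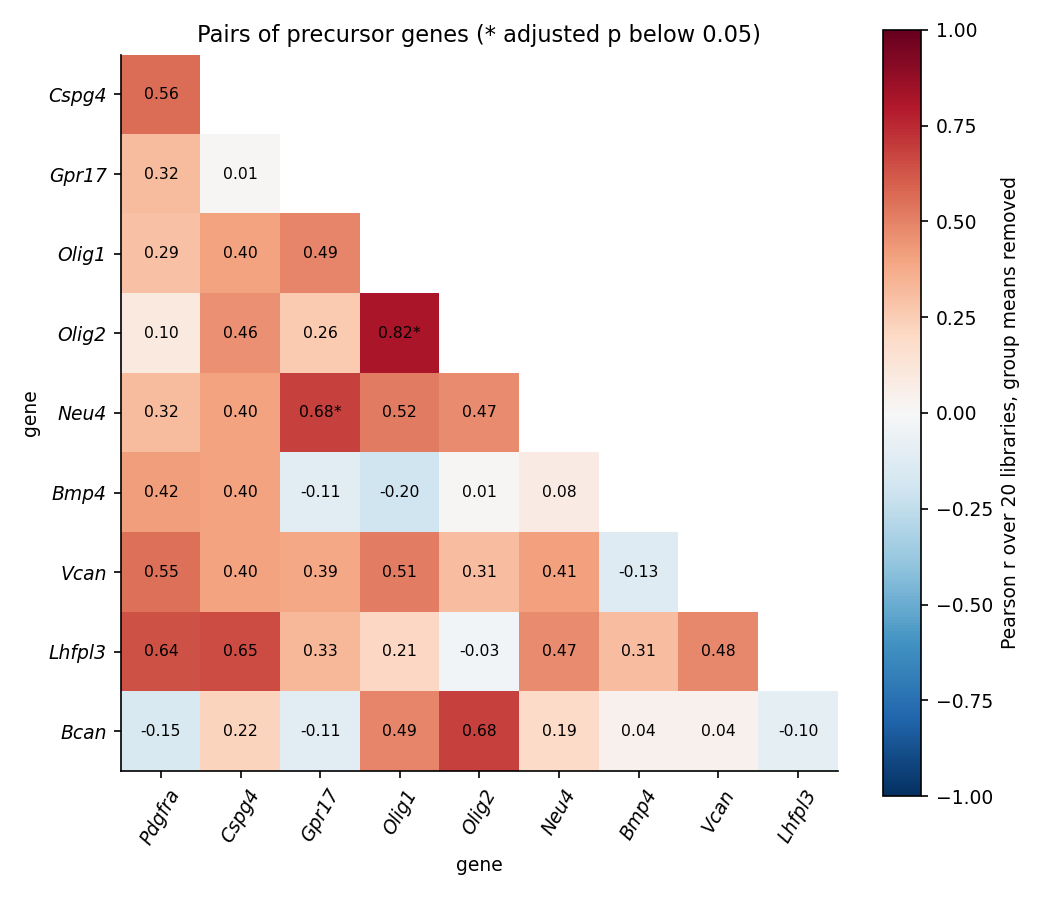
Pearson r of each pair of precursor genes over the 20 libraries after removal of group means (cells; both axes list genes, colour runs from -1 to 1). Asterisks mark the 2 pairs that passed, Olig1 with Olig2 (0.82) and Gpr17 with Neu4 (0.68); the lowest value is -0.20, for Olig1 with Bmp4.

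The same measure was used to find the genes most alike to Pdgfra and to Gpr17 among 14260 genes. These were chosen as the highest of many, so the values are a description. For Pdgfra they included Tdrkh (r = 0.79), Aldh1l2 (0.79), Snx7 (0.77) and Pitrm1 (0.76), over 20 libraries. The nearest precursor gene was Lhfpl3 at rank 41 (0.64), and Cspg4 (0.56) and Vcan (0.55) came at ranks 196 and 207. For Gpr17 they were Osbpl11 (0.85), Slc35b4 (0.82), Map2k3 (0.82), Sc5d (0.82) and Psmd2 (0.81), and Neu4 at rank 156 (0.68) was the nearest of the 10. None of the 10 genes was thus among the 5 nearest of either.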

How the data were processed

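Poly(A) RNA of 20 hippocampi was sequenced as 75-base read pairs, per the labels' protocols. The authors deposited raw read-pair counts for every gene, made with featureCounts 2.0.6 on the GENCODE M34 basic annotation without a strand option, per the file headers. The submitters' processing notes name STAR 2.5.1, Subread 1.5.1, DESeq2 1.38.3 and mm39; how reads were trimmed and aligned is not given in the sources used here. Symbols came from a names table, which matched 51884 of 57126 identifiers; the 5242 others held 0.264% to 0.337% of counts and stayed in the tests.

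Counts were fitted in edgeR 4.0.16 (R 4.3.3) with filterByExpr (minimum count 10, total 15), TMM scaling, 1 term per group over all 20 libraries (16 residual degrees of freedom) and the quasi-likelihood test, adjusted by Benjamini-Hochberg over 18648 genes. The script was tested on simulated data. The 40 pairs of libraries within groups were checked for duplicates, and each pair differed by more than counting noise. The labels call libraries of a group biological replicates, read here as 1 mouse each. Alternatives were DESeq2 1.42.0, limma-voom (limma 3.58.1), other scalings and filters, a replicate block and libraries left out.

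Named are all 10 genes, up to 5 called genes per list and comparison by size of change, and the 5 genes most alike to Pdgfra and Gpr17, apart from items not reported here. The genes and lists were chosen with earlier results of these data known. Counting error, largest for Bmp4, is part of the spread between mice.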

Additional observations from a re-analysis of the deposited data

Results flagged for a closer look

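In 40 groups of 5 mice (10 genes in 4 groups), 1 library each for 2 genes stood apart from the others of its group; chance alone gives about 1 in 20 such groups. Olig2 in knockin dexamethasone replicate 2 was at 18.8 CPM, with the other 4 mice of the group at 20.5 to 21.1 CPM. Neu4 in knockin dexamethasone replicate 3 was at 15.5 CPM, with the other 4 at 13.9 to 14.1 CPM. Neither gene's call changed without that library.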

How the results depend on the processing

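Recomputing the 12 values called among the 10 genes, each under its own alternatives, gave 285 values in all. Direction and call were kept in 284, and the exception is the Gpr17 mean response without wild-type PBS replicates 1 and 2. None reversed. The fit with a replicate block called 4, 3 and 5 of the 10 genes in knockin mice, in wild-type mice and for the mean response, the counts of the main fit; replicate numbers do not pair the samples (correlations of same-numbered libraries from -0.11 to 0.25). Reversals among values without a call were all close to 0. Bmp4 in the mean response was -0.01 with library totals and -0.02 without wild-type PBS replicates 1 and 2. Knockin against wild-type under PBS gave Cspg4 0.01 and Lhfpl3 0.02 with limma-voom, Cspg4 0.02 without 2 choroid-rich libraries, and Gpr17 -0.01 without wild-type PBS replicates 1 and 2. The Gpr17 difference of responses was -0.01 with limma-voom. Leaving out each replicate gave -0.08 to 0.04 for Olig2 in wild-type mice, -0.04 to 0.01 for Bcan in knockin mice and -0.03 to 0.06 for the Bmp4 mean response. Knockin against wild-type under dexamethasone ran from -0.02 to 0.08 for Gpr17, -0.05 to 0.07 for Olig1, -0.12 to 0.01 for Neu4 and -0.03 to 0.05 for Vcan. Under PBS it ran from -0.07 to 0.05 for Cspg4, -0.06 to 0.03 for Lhfpl3 and -0.03 to 0.01 for Bcan. The difference of responses ran from -0.05 to 0.05 for Gpr17 and -0.07 to 0.02 for Lhfpl3. The cause was not tested. Of the pairs of genes, 0 passed by Spearman's rho, 1 without the 2 farthest libraries (Pdgfra with Vcan, neither of the reported pairs) and 6 with library totals, against 2 as reported. The 5 mice per group limit what intervals can exclude.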
